A study of Mus musculus with 6 samples.

Results

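The semaphorins, their plexin and neuropilin receptors, and the plexin domain containing genes were followed in the olfactory bulbs (OBs) of Tg2576 mice, which carry human APP with the Swedish double mutation under the hamster prion promoter. Genes were chosen by symbol, with earlier results of these data known. The choice took every measured gene of semaphorin classes 3 to 7, plexins A to D and neuropilins 1 and 2, with Plxdc1 and Plxdc2 added by name. This gave 31 genes of the 19505 gene symbols measured, namely 19 semaphorins, 9 plexins, Nrp2 and the 2 Plxdc genes, each with 1 probe set. Nrp1 and Sema4a were not paired with a probe set in the annotation used and were not analysed here. The OBs of 3 female Tg2576 mice of 18 months were set against those of 3 WT littermates of the same age, and each mouse gave 1 Affymetrix Clarion S array. The paper describes its Tg2576 mice as female and does not state the sex of the WT mice. The human transgene itself was not checked, since the arrays carry probes for mouse genes.

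Semaphorins are secreted or membrane-bound guidance cues, and plexins are the receptors that pass their signal to small GTPases and the cytoskeleton. Most class 3 semaphorins need a neuropilin as the part of the receptor that binds them, while classes 4 to 7 mostly bind plexins directly. In the olfactory system these genes are known for sorting the axons of olfactory sensory neurons, which grow into the bulb throughout life, and for the contacts those axons make with mitral and tufted cells. Outside neurons, plexins and semaphorins act in blood vessels, oligodendrocytes and immune cells. Plxdc1 and Plxdc2 are not plexins. They are transmembrane proteins with a plexin-like domain, known from tumour blood vessels, that bind cortactin and act as receptors of pigment epithelium-derived factor.

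All values are log2 RMA expression, and differences are Tg2576 minus WT. The array medians lay between 8.18 and 8.22 over 22206 probe sets, and arrays correlated with each other at 0.992 to 0.995 (Pearson). All 31 genes had means above 6.91, the highest of the array medians of the negative control probe sets. Genes were called at an unadjusted p under 0.01 with a fold over 1.3 or under 0.7 in a limma model fitted to all probe sets. The limit on p is that of the study's methods, and the limits on the fold are those that head its list of array genes. At a 5% false discovery rate limma called 0 probe sets of the series, with 1896 at an unadjusted p under 0.05, so every call below rests on unadjusted p values. An exact test of 3 mice against 3 cannot go below p = 0.1, and single genes were therefore tested only in the model. In whole bulbs, more cells of a type and more RNA per cell cannot be told apart.

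In Tg2576 OBs 2 of the 31 genes rose, Plxdc1 and Plxnb1, and none fell. Across the series 0.797% of probe sets were called, 0.698% higher and 0.0991% lower. No semaphorin was called in either direction. An unadjusted p under 0.05 was reached by 6 of the 31 genes, against 8.54% of all probe sets. Among these 6, Plxdc1, Plxnb1, Plxnd1 and Plxdc2 were higher, against 4.57% of all probe sets, and Sema5a and Sema3a were lower, against 3.97%. The 3 Tg2576 arrays all lay above the 3 WT arrays for 6 genes and all below for 1, together 22.6% of the 31 genes, against 14.1% of all probe sets. These counts include Plxdc1 and Plxdc2, which were added by name with earlier results of these data known. They gave 1 of the 2 calls and 2 of the 6 genes with an unadjusted p under 0.05. Both were also among the 6 genes that were higher without overlap. The median difference of the 31 genes was 0.075, beside -0.0049 for all probe sets. The difference was positive for 25 of the 31 genes, against 48.4% of all probe sets, and this number was 21 after a further cyclic loess or quantile normalization and 22 after median centring.

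**Figure D1:**
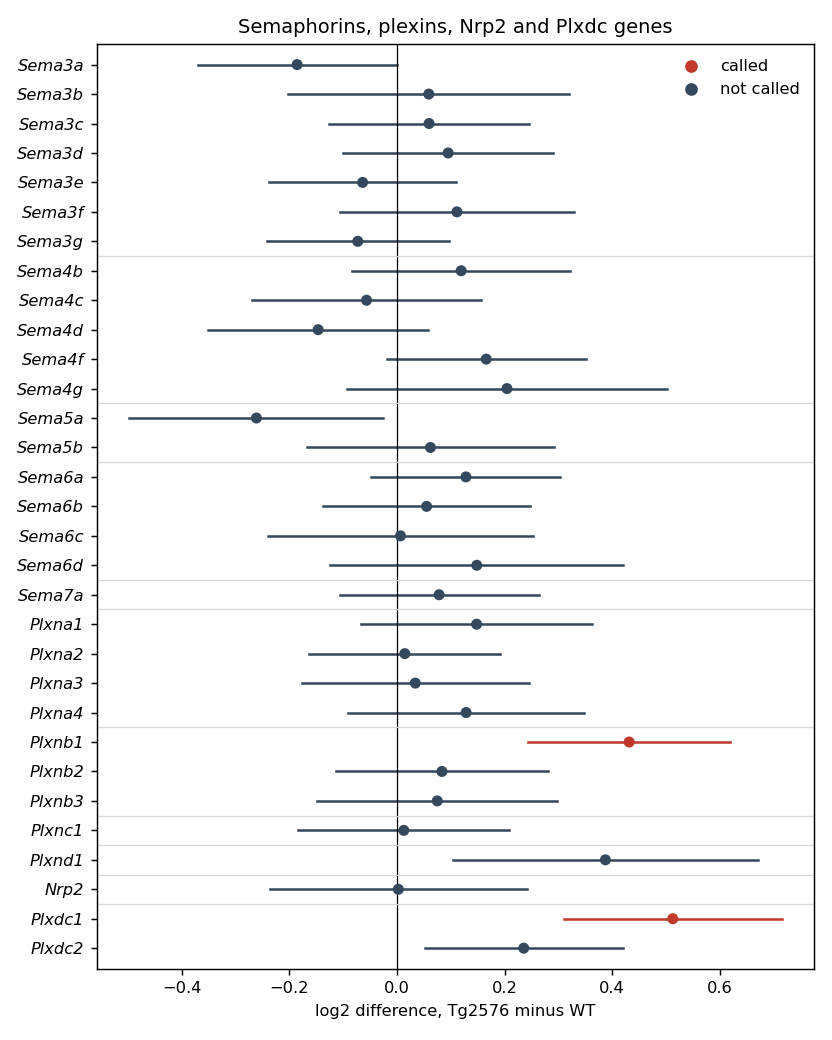
The log2 difference between Tg2576 and WT OBs (horizontal axis) is plotted for each of the 31 genes, ordered by class, with 95% confidence intervals from limma as lines (n = 3 arrays per genotype). Plxdc1 (0.51) and Plxnb1 (0.43), in red, are the called genes, and the intervals of Plxnd1, Plxdc2, Sema5a and Sema3a also lie to 1 side of 0.

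Plxdc1 was at 7.92, 7.68 and 7.91 in the Tg2576 replicates 1 to 3, against 7.29, 7.31 and 7.37 in the WT replicates. Every Tg2576 array lay above every WT array, and replicate 2 was the lowest of the Tg2576 arrays. Plxdc1 averaged 7.84 ± 0.13 in Tg2576 OBs, against 7.32 ± 0.041 in WT OBs (SD over 3 arrays). Plxdc1 rose by a log2 of 0.51 (SE 0.089), a fold of 1.43 (limma, adjusted p = 0.332). It was called in all 16 alternatives, with differences from 0.47 to 0.59, but those with other fold thresholds could not end a higher call. The related Plxdc2 was at 11.21, 11.35 and 11.31 in Tg2576 OBs, against 11.14, 11.00 and 11.02 in WT OBs. The arrays of Plxdc2 did not overlap either, and the lowest Tg2576 array and the highest WT array were close together. Its difference of 0.24 (SE 0.081) had a 95% confidence interval from 0.052 to 0.42 and did not pass the thresholds.

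Plxnb1 encodes the receptor of Sema4D, which signals to RhoA and pairs with the receptor tyrosine kinases ErbB2 and Met. It was at 8.65, 8.85 and 8.80 in Tg2576 OBs and at 8.28, 8.35 and 8.37 in WT OBs. The groups did not overlap, and replicate 1 was the lowest of the Tg2576 arrays. Plxnb1 rose by a log2 of 0.43 (SE 0.082), a fold of 1.35 (limma, adjusted p = 0.332). It was called in all 16 alternatives, with differences from 0.39 to 0.49, and here too those with other fold thresholds could not end the call.

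The other class B plexins were not called. Plxnb2, which binds class 4 semaphorins such as Sema4C, was at 10.16, 10.22 and 10.01 in Tg2576 OBs, against 10.05, 9.97 and 10.12 in WT OBs. These values overlapped, with a difference of 0.084 (95% confidence interval -0.11 to 0.28). Plxnb3, a receptor of Sema5A, differed by 0.075 (-0.15 to 0.30).

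Plxnd1, the plexin of blood vessels that Sema3E binds without a neuropilin, was at 9.23, 9.35 and 9.43 in Tg2576 OBs and at 9.14, 8.68 and 9.03 in WT OBs. The Tg2576 arrays lay above all WT arrays, and the WT arrays were spread widely, with replicate 2 far below the others. The difference was 0.39 (SE 0.12, limma adjusted p = 0.493) and missed the threshold on p. Plxnd1 passed both thresholds without WT replicate 1 (0.48) and with limma-trend and robust moderation (0.39). Its difference was 0.25 without WT replicate 2. Plxnc1, the receptor of Sema7A, was at 11.42, 11.38 and 11.39 in Tg2576 OBs, against 11.36, 11.26 and 11.52 in WT OBs. The Tg2576 values lay within the WT range, and the difference was 0.013 (95% confidence interval -0.18 to 0.21).

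The 4 class A plexins, which form receptors with neuropilins or bind class 6 semaphorins, were not called. Plxna2, a receptor of Sema6A, was at 10.19, 10.31 and 10.29 in Tg2576 OBs, against 10.18, 10.26 and 10.31 in WT OBs. Plxna3, which pairs with Nrp2 in the response to Sema3F, was at 8.40, 8.64 and 8.52 in Tg2576 OBs and at 8.55, 8.38 and 8.53 in WT OBs. In both genes the genotypes overlapped. Plxna1 and Plxna4 differed by 0.15 (95% confidence interval -0.066 to 0.36) and 0.13 (-0.090 to 0.35). The differences of all 9 plexins were positive as deposited, and 7 of 9 were after cyclic loess or quantile normalization and 8 of 9 after median centring.

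Nrp2, the neuropilin that binds Sema3F, was at 9.01, 9.02 and 9.26 in Tg2576 OBs, against 8.94, 9.21 and 9.13 in WT OBs. The groups overlapped, and the difference of 0.0026 (95% confidence interval -0.24 to 0.24) was the nearest to 0 among the 31 genes.

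**Figure D2:**
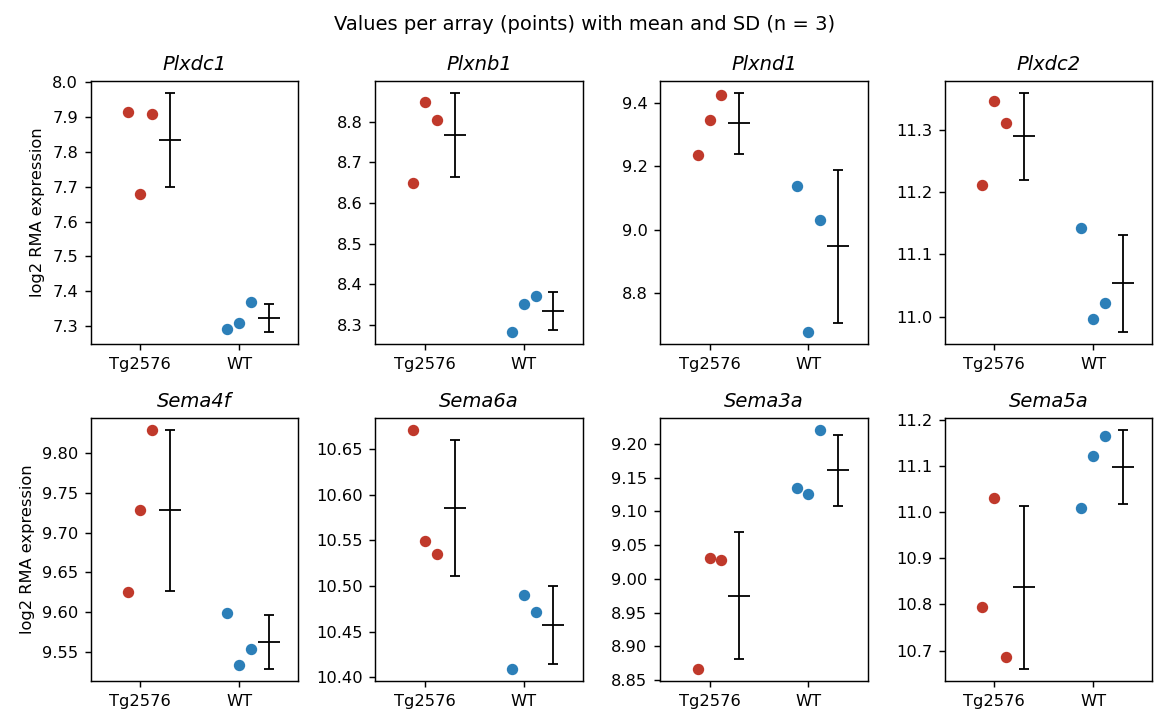
Log2 RMA expression (vertical axes, each with its own range) is shown per array for the 7 genes whose arrays did not overlap between genotypes and for Sema5a, with Tg2576 in red and WT in blue, and with mean and SD in black (n = 3). The gap between genotypes is widest in Plxdc1 and Plxnb1, while in Sema5a 1 Tg2576 array (11.03) lies above the lowest WT array (11.01).

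Among the secreted class 3 semaphorins, Sema3a, the cue that repels axons carrying neuropilin 1, was lower in Tg2576 OBs. It was at 8.87, 9.03 and 9.03 in Tg2576 OBs, against 9.14, 9.13 and 9.22 in WT OBs. The groups did not overlap, and Tg2576 replicate 1 was the lowest. The difference of -0.19 (SE 0.081, limma adjusted p = 0.584) did not pass the thresholds and was -0.21 to -0.13 in the 16 alternatives. Since the groups did not overlap, leaving out or weighting arrays could not change its sign. Sema3c, a cue of heart and vessel development, was at 10.05, 9.98 and 10.19 in Tg2576 OBs and at 9.995, 10.02 and 10.02 in WT OBs. Sema3g, known from the endothelium, was at 7.45, 7.52 and 7.56 in Tg2576 OBs, against 7.62, 7.60 and 7.54 in WT OBs. In both genes the groups overlapped. Sema3f, the ligand of Nrp2, differed by 0.11 (95% confidence interval -0.11 to 0.33), and Sema3e, the ligand of plexin D1, by -0.064 (-0.24 to 0.11). Sema3d differed by 0.095 and Sema3b by 0.059, and the difference of Sema3b was -0.070 without WT replicate 3.

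The class 4 semaphorins are membrane proteins that bind mostly class B plexins. Sema4d, the ligand of the receptor encoded by Plxnb1, was at 7.98, 8.13 and 8.11 in Tg2576 OBs, against 8.09, 8.32 and 8.25 in WT OBs. The groups overlapped, with a difference of -0.15 (95% confidence interval -0.35 to 0.058). Sema4f, a transmembrane semaphorin of neurons, was at 9.63, 9.73 and 9.83 in Tg2576 OBs and at 9.60, 9.53 and 9.55 in WT OBs. Its groups did not overlap, but the lowest Tg2576 array was close to the highest WT array, and the difference of 0.17 (-0.019 to 0.35) did not pass the thresholds. Sema4b was at 9.85, 10.08 and 9.94 in Tg2576 OBs, against 9.79, 9.79 and 9.93 in WT OBs, with overlap. Sema4g differed by 0.20 (-0.092 to 0.50) and Sema4c by -0.056 (-0.27 to 0.16). Sema4g had the widest interval of the 31 genes.

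Sema5a, a semaphorin with thrombospondin repeats that can attract or repel axons, was at 10.79, 11.03 and 10.69 in Tg2576 OBs and at 11.01, 11.12 and 11.16 in WT OBs. Tg2576 replicate 2 lay within the WT range and the other Tg2576 arrays lay below it. The difference of -0.26 (SE 0.10, limma adjusted p = 0.557) was the lowest of the 31 genes and did not pass the thresholds. Without Tg2576 replicate 2 it was -0.36, and without Tg2576 replicate 3 it was -0.19. Its relative Sema5b was at 10.35, 10.09 and 10.26 in Tg2576 OBs, against 10.18, 10.04 and 10.30 in WT OBs. The groups of Sema5b overlapped, and the difference was 0.062 (95% confidence interval -0.17 to 0.29).

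Class 6 semaphorins are transmembrane ligands of class A plexins. Sema6a, the ligand of plexins A2 and A4, was at 10.67, 10.55 and 10.53 in Tg2576 OBs, against 10.41, 10.49 and 10.47 in WT OBs. Its groups did not overlap, and the difference of 0.13 (95% confidence interval -0.048 to 0.30) did not pass the thresholds. Sema6b was at 10.87, 10.99 and 10.86 in Tg2576 OBs and at 10.88, 10.74 and 10.93 in WT OBs. Sema6c was at 9.19, 9.33 and 9.34 in Tg2576 OBs, against 9.33, 9.07 and 9.44 in WT OBs. Both genes overlapped between genotypes. Sema6d, a ligand of plexin A1, differed by 0.15 (-0.12 to 0.42). Sema7a, which is anchored in the membrane by a lipid and acts between sensory axons and mitral cells, was at 9.23, 9.20 and 9.06 in Tg2576 OBs, against 9.07, 9.04 and 9.15 in WT OBs. Its groups overlapped, with a difference of 0.078 (-0.11 to 0.26).

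Sequences are given for 3 genes whose arrays did not overlap, namely Plxnb1, which was called, and Plxnd1 and Sema3a, which were not. They are RefSeq windows of 300 bases on GRCm38.p6 around 1 annotated start, written 5′ to 3′ on the gene's strand. Capitals mark the GC box, GGGCGG or its complement CCGCCC, which Sp1 family factors bind. All 3 windows lie within the annotated span of their gene, and that of Sema3a lies far inside it, so they are not windows before the outermost start. The window of Plxnb1 is chr9:109095186-109095485 on the plus strand, that of Plxnd1 chr6:115994956-115995255 on the minus strand, and that of Sema3a chr5:13396534-13396833 on the plus strand.
Plxnb1: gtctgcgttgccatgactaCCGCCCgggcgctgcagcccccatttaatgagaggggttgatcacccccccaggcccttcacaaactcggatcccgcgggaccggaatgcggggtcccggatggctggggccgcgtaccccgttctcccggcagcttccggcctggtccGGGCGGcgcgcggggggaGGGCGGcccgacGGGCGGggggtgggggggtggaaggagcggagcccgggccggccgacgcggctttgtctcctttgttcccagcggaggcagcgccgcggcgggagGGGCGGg
Plxnd1: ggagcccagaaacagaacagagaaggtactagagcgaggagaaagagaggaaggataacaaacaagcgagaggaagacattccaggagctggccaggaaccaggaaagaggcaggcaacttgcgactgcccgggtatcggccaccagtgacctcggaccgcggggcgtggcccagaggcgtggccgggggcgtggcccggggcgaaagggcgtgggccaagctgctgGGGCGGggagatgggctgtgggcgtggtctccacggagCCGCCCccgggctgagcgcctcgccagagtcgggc
Sema3a: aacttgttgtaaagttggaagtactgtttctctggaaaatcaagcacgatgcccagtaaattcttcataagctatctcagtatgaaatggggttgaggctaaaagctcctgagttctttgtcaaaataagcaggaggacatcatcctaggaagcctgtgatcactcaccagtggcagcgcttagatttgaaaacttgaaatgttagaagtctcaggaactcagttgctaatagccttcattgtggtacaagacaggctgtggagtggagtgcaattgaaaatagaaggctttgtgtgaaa

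The content of G and C varied among genes of either direction. Plxnb1 had 74.7% G and C with 36 CpG dinucleotides and 5 GC boxes, and Plxnd1 had 67.0% with 23 CpG dinucleotides and 2 GC boxes. Sema3a had 41.3% with 2 CpG dinucleotides and no GC box. Sema5a, with the lowest difference of the 31 genes, had 71.3% and 5 GC boxes, and Sema4f, with a positive difference, had 48.7% and none. Other starts are annotated for some of these genes, and the arrays do not show which start was used. Of the 31 genes, 24 had 1 or more windows, 32 windows in all, and Plxdc1 and Plxdc2 had none. A GC box on either strand was present in 23 of the 32 windows (71.9%), against 35.7% of all 32851 windows of the same length, and the median share of G and C was 64.5% in these windows against 52.7% in all. The TATA box letters TATAAA or TTTATA were in 0 of the 32 windows, against 13.6% of all. The cAMP response element TGACGTCA was in 0 of the 32, against 1.79% of all, and the NFκB consensus, on either strand, in 0 of the 32, against 0.155% of all. These are matches of letters in a short window, and nothing follows from them on the binding of a factor.

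Of 49 measured partners of the pathway or of the Plxdc proteins, 2 rose and none fell, against 0.797% of all probe sets. These partners include co-receptors, GTPases, collapsin response mediators, kinases, other ligands and binders of the Plxdc proteins. The list was made with earlier results of these data known, and the paper names Nid1 among its differential targets. Nid1, the basement membrane protein nidogen 1, which binds the protein of Plxdc1, was at 9.63, 9.62 and 9.73 in Tg2576 OBs and at 9.15, 9.22 and 8.998 in WT OBs. Nid1 rose by 0.54 on the log2 scale (SE 0.085, limma adjusted p = 0.332) without overlap. Chl1, a cell adhesion molecule that takes part in the Sema3A receptor complex, was at 9.38, 9.46 and 9.64 in Tg2576 OBs, against 9.27, 8.91 and 9.15 in WT OBs. It rose by 0.38 (SE 0.11, limma adjusted p = 0.457), close to the fold threshold, and its call ended after cyclic loess, quantile normalization, median centring or array weights (0.34 to 0.37). The call also ended when any array but Tg2576 replicate 1 or WT replicate 1 was left out (0.28 to 0.40).

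Erbb2 and L1cam passed on p and lay just under the fold threshold. Erbb2, the kinase that pairs with plexin B1, was at 8.10, 8.028 and 8.01 in Tg2576 OBs, against 7.74, 7.69 and 7.59 in WT OBs. The difference of 0.37 (SE 0.078) passed the threshold on p, and the fold lay just under 1.3. It passed both with array weights (0.39), after cyclic loess (0.38) and when any array but Tg2576 replicate 1 or WT replicate 3 was left out (0.38 to 0.41). L1cam, the adhesion molecule that joins neuropilin 1 in the Sema3A receptor, was at 11.46, 11.59 and 11.41 in Tg2576 OBs, against 11.19, 11.00 and 11.19 in WT OBs. Its difference of 0.36 (SE 0.089) passed the threshold on p but not on the fold, and it passed both when WT replicate 1, WT replicate 3 or Tg2576 replicate 3 was dropped (0.39 to 0.40). Neither Erbb2 nor L1cam overlapped between genotypes. Rhoa, the GTPase downstream of plexin B1, differed by 0.22 (SE 0.088) and Met, a kinase partner of plexin B1 at levels under the negative controls, by 0.18 (SE 0.081). The median difference of the 49 partners was 0.064, and 10 of them had Tg2576 arrays that did not overlap the WT arrays, all higher, against 7.03% of all probe sets that were higher without overlap.

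Of 40 genes of the other guidance families (ephrins and Eph receptors, Slits and Robos, netrins and their receptors), none was called by limma, 3 passed on p without a fold threshold, and an unadjusted p under 0.05 was found for 10 (25.0%, against 8.54% of all probe sets), with 8 higher. The arrays did not overlap for 13 of the 40 genes (32.5%, against 14.1% of all probe sets), 9 of them higher and 4 lower. Both shares were above those of the 31 semaphorin, plexin, neuropilin and Plxdc genes, 19.4% and 22.6%, and the difference was not tested. The largest of these differences was that of Ephb3, a receptor of B-class ephrins, which was at 8.35, 8.51 and 8.30 in Tg2576 OBs, against 8.02, 8.09 and 7.97 in WT OBs (difference 0.36, SE 0.085). Ephb3 was called with array weights and when WT replicate 2, Tg2576 replicate 1 or Tg2576 replicate 3 was dropped (0.38 to 0.41). Rgma, a ligand of neogenin, differed by 0.33 (SE 0.083), Ephb4, a receptor of veins, by 0.28 (SE 0.084), and its ligand gene Efnb2 by 0.25 (SE 0.088). Epha10 differed by -0.28 (SE 0.10) and Robo2, a Slit receptor of sensory axons, by 0.21 (SE 0.078). The median difference of the 40 genes was -0.013, beside 0.075 for the 31 genes, and this contrast was not tested. Leaving out 1 array moved both medians. That of the 40 genes was 0.042 without WT replicate 3 and 0.023 without Tg2576 replicate 3, and that of the 31 genes was 0.045 without WT replicate 2.

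**Figure D3:**
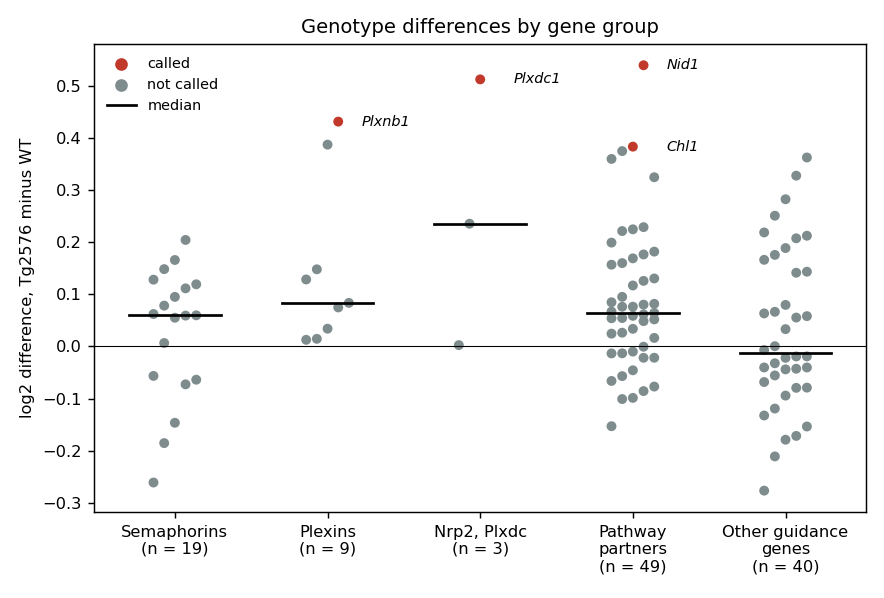
Log2 differences between Tg2576 and WT OBs (vertical axis) are plotted for each gene of 5 groups, with called genes in red and the group median as a bar. Called genes are Plxnb1, Plxdc1, Nid1 and Chl1, and the medians are 0.060 for the semaphorins, 0.084 for the plexins and -0.013 for the other guidance genes.

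The list means of endothelial, oligodendrocyte, astrocyte and olfactory ensheathing glia markers lay higher in Tg2576 OBs without overlap. Those of microglia and oligodendrocyte precursors overlapped between genotypes. Within the lists without overlap, single markers did overlap, such as Pecam1, Mbp, Sox9 and Npy. The mean of 12 endothelial markers was 9.16 to 9.31 in Tg2576 OBs, against 8.99 to 9.10 in WT OBs, with 10 of 12 differences positive and 1 called. The mean of 9 measured oligodendrocyte markers was 9.03 to 9.27 in Tg2576 OBs and 8.73 to 8.98 in WT OBs, with 9 of 9 positive and 1 called. The mean of 8 astrocyte markers was 9.71 to 9.74 in Tg2576 OBs and 9.54 to 9.61 in WT OBs, with 6 of 8 positive and 1 called. The mean of 6 markers of olfactory ensheathing glia, the glia around sensory axons, was 10.44 to 10.50 in Tg2576 OBs and 10.22 to 10.36 in WT OBs, with 4 of 6 positive and 2 called, Frzb (0.58) and Sox10 (0.38). The other markers of this list were not called, Fabp7 (0.19), Npy (0.056), Ngfr (-0.061) and Mybpc1 (-0.17). Microglial markers were at 8.97 to 9.04 in Tg2576 OBs and 8.89 to 8.996 in WT OBs, with 5 of 8 positive. Markers of oligodendrocyte precursors were at 9.51 to 9.59 in Tg2576 OBs and 9.48 to 9.59 in WT OBs, with 3 of 5 positive. None of the genes of these 6 lists had a mean under the negative controls. Above the WT mean, Plxnb1 lay by 0.31, 0.51 and 0.47 in Tg2576 replicates 1 to 3, oligodendrocyte markers by 0.15, 0.37 and 0.39, and mitral and tufted cell markers by 0.15, 0.28 and 0.25. Plxdc1 lay above it by 0.59, 0.36 and 0.59, endothelial markers by 0.25, 0.10 and 0.22, and sensory neuron markers by 0.52, 0.23 and 0.61. Plxnb1 and both lists beside it were lowest in Tg2576 replicate 1, and Plxdc1 and both lists beside it in Tg2576 replicate 2. Other lists shared these lows, astrocyte and microglia markers in replicate 1 and pericyte and smooth muscle markers in replicate 2. Among the WT arrays both genes were lowest in replicate 1 (Plxnb1 -0.053, Plxdc1 -0.033). Oligodendrocyte (-0.16) and mitral and tufted cell markers (-0.087) were lowest in WT replicate 2, and endothelial (-0.067) and sensory neuron markers (-0.11) in WT replicate 3. Thus 3 arrays per genotype do not tell the lists apart. The part of these cell types in the differences was not tested.

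The list mean of sensory neuron markers lay higher in Tg2576 OBs as well, and that of olfactory mucosa markers did in 2 of the 3 Tg2576 arrays. In WT replicate 3 the mucosa markers also lay 0.41 above the WT mean. The mean of 10 markers of olfactory sensory neurons was 8.83 to 9.21 in Tg2576 OBs, against 8.48 to 8.80 in WT OBs, with 9 of 10 positive, 4 called and 2 under the negative controls. The mean of 15 measured markers of non-neuronal mucosa was 7.11 to 8.92 in Tg2576 OBs, against 7.13 to 7.84 in WT OBs, with 14 of 15 positive, none called and 4 under the negative controls. In Tg2576 replicate 2, where the mucosa markers lay at -0.31 from the WT mean, Plxdc1 lay 0.36 above it, its lowest Tg2576 value, and Plxnb1 0.51. Without that array the difference of Plxdc1 was 0.59, against 0.51 with all arrays, and that of Plxnb1 was 0.39, against 0.43. The part of the mucosa in these differences was not tested. Markers of bulb interneurons were at 10.97 to 11.01 in Tg2576 and 10.97 to 11.03 in WT OBs, with none under the negative controls. Pericyte and smooth muscle markers were at 8.52 to 8.65 in Tg2576 and 8.38 to 8.46 in WT OBs, with 7 of 9 positive. Mitral and tufted cell markers were at 10.04 to 10.18 in Tg2576 and 9.81 to 9.95 in WT OBs, with 7 of 7 positive and 1 called. Choroid plexus markers were at 6.97 to 7.06 in Tg2576 and 6.90 to 6.95 in WT OBs, with 4 of 5 positive. Meningeal fibroblast markers were at 8.56 to 8.73 in Tg2576 and 8.31 to 8.62 in WT OBs, with Dcn (0.54) called. Neuroblast markers were at 9.25 to 9.33 in Tg2576 and 9.19 to 9.41 in WT OBs. Of these, 2 choroid plexus, 2 meningeal and 1 neuroblast marker lay under the negative controls.

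**Figure D4:**
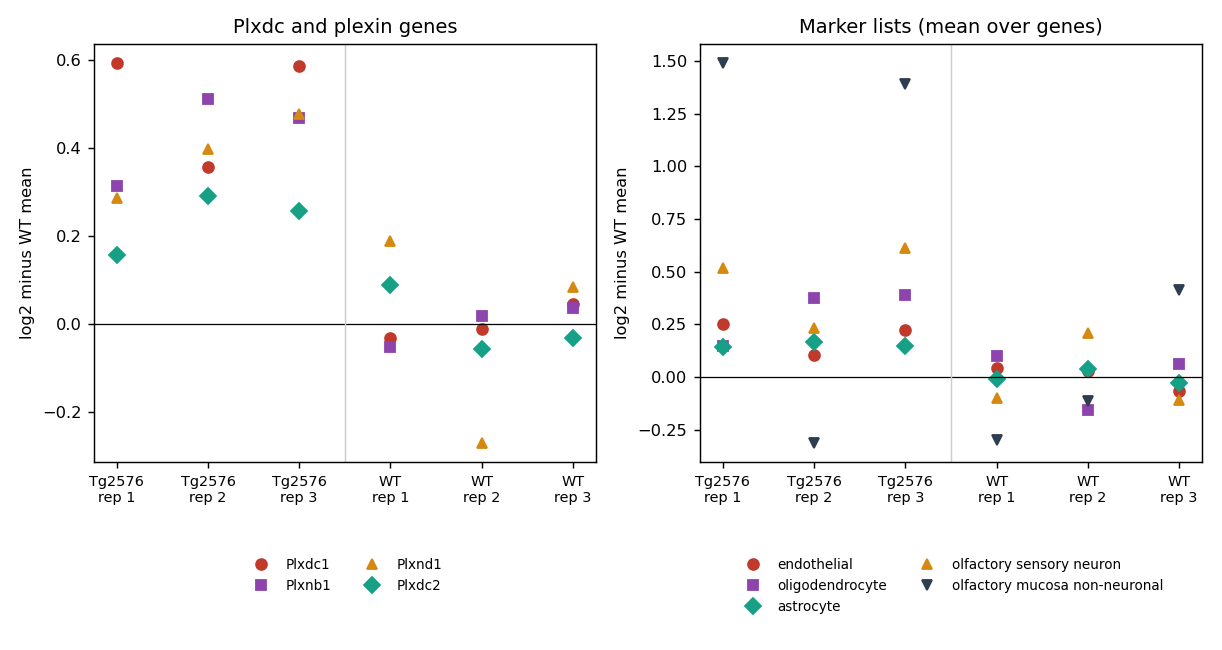
Log2 expression minus the WT mean (vertical axes) is plotted per array for 4 genes on the left and for the mean of 5 marker lists on the right. The 4 genes lie above 0 in all Tg2576 arrays, from 0.16 to 0.59. The mucosa markers lie at 1.49 and 1.39 in Tg2576 replicates 1 and 3, at -0.31 in Tg2576 replicate 2 and at 0.41 in WT replicate 3.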

How the data were processed

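The OBs of 3 female Tg2576 mice and 3 WT mice, all of 18 months, were measured on Affymetrix mouse Clarion S arrays. The deposited table holds log2 values, 1 for each array and probe set, which the authors made by RMA, and it was used as it stood. The version of RMA and the arrays normalized together are not given in the sources used here. RMA aligns the arrays by quantiles, so an overall shift in RNA cannot be seen, and differences of probe sets near background are compressed. Depth does not apply to arrays, and their number limits the precision. Groups came from the sample labels.

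Of 28815 rows, 63 spike-in and 6546 other controls were left out, and the latter include the 5222 negative controls. The 22206 remaining probe sets were tested. Of these, 19572 had 1 gene symbol in the annotation of the platform and 2634 had none. Where a gene had several probe sets, that with the highest mean was used. The model had genotype as its only term and was fitted with limma 3.58.1 (R 4.3.3), giving 8.47 degrees of freedom in all. The p values were adjusted over all probe sets by the Benjamini-Hochberg method. The fit was checked on simulated data, but only with folds larger than those of Plxdc1 and Plxnb1. A gene is said to have risen or fallen where it passed both thresholds.

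The genes, the lists of partners, other guidance genes and markers, and the motifs were chosen with earlier results of these data known. Values per array were given for genes that were called, had an unadjusted p under 0.05 or did not overlap between genotypes, and for the genes with the highest and lowest mean of each class. Of the partners and other guidance genes, those called and the 6 of smallest p were named. Genes of the lists without a symbol in the annotation (1 of 50 partners and 4 markers) were not used here. Figures were drawn in Python 3.11.15 with matplotlib 3.10.9. Alternatives were limma-trend, array weights, further normalizations, filters on low values, the replicate number as a block, other fold thresholds, and leaving out single arrays. Limma-trend was always run with robust moderation. The other fold thresholds reused the main fit, so they could neither change a difference nor end a higher call. Limma-trend, the filters and the block changed p values but left each difference as it was, so its sign was fixed there.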

Additional observations from a re-analysis of the deposited data

How the results depend on the processing

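The counts of called genes among the 31 were 2 higher and 0 lower, and in the alternatives 2 or 3 higher and 0 lower, with Plxnd1 as the gene gained. Of the 31 genes, 23 kept their sign in all 16 alternatives, and the other 8 had differences of -0.056 to 0.062 as reported. Where the arrays of a gene did not overlap between genotypes, leaving out or weighting arrays could not change its sign. The number of partners called higher, 2 as reported, was 1 after a further quantile normalization or median centring, 4 without a fold threshold and from 2 to 4 when 1 array was left out, with 4 without WT replicate 1 (Nid1, Chl1, Erbb2 and L1cam). That of the other guidance genes, 0 as reported, was 1 with array weights, 3 without a fold threshold and from 0 to 1 when 1 array was left out. Over all probe sets, 155 higher and 22 lower calls became 280 and 188 without a fold threshold, and the lower calls were 75 with a threshold equal in both directions and 47 without WT replicate 1. At a 5% false discovery rate limma called 0 probe sets, limma-trend with robust moderation 9 and limma without Tg2576 replicate 2 called 6. None of them was among the 31 genes, and Nid1 was among the 9 of limma-trend (adjusted p = 0.0476). The mean over several probe sets of a gene was not run, since each of the 31 genes had 1.

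Samples of the same replicate number did not deviate together (r = 0.036, -0.038 and -0.043), so the numbers were not taken as pairs. With the replicate block the 31 genes again gave 2 higher calls, Plxdc1 and Plxnb1, the partners 2 and the other guidance genes 0, and all probe sets gave 200 higher and 25 lower calls. No Tg2576 array correlated best with the WT array of its own number.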
